A study of Mus musculus with 2 samples.

Results

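CC chemokines are small secreted proteins that guide leukocytes, and they act through CC chemokine receptors on the cell surface. Described here are 7 ligand genes, *Ccl2*, *Ccl3*, *Ccl4*, *Ccl6*, *Ccl7*, *Ccl9* and *Ccl19*, and 2 receptor genes, *Ccr1* and *Ccr2*. These 9 genes were taken by their symbols from the 31053 feature rows of the count matrices, where they occupy 10 rows because *Ccl19* is listed at 2 loci. They were chosen by their measured UMI levels per cell class in these libraries, including the higher *Ccl4* level of neutrophils after ligation, so that the differences below are a description and carry no test.

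The data are 2 single-cell RNA-seq libraries of periodontal tissue, which is gingiva together with material scraped from the alveolar bone surface. Both come from wild-type C57BL/6 mice aged 8 weeks. One library (LIP) was made from mice with ligature-induced periodontitis, a model in which a thread tied around a molar gathers bacteria and provokes gum inflammation and bone loss, at day 7 after the ligature was placed. The other (control) was made from mice that received no treatment. Each library holds the cells of 5 mice and cells were not assigned to mice, so the spread between mice is not known, and the ligature, the mice and the library preparation cannot be told apart.

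After the filters on cells, 936 LIP and 883 control cells were kept, at a median of 5595 and 10845 unique molecular identifiers (UMIs, 1 for each captured transcript molecule) per cell. The whole libraries held 1212 LIP barcodes with 14236327 UMIs and 1169 control barcodes with 16472915 UMIs. They shared 2 barcode sequences, 1 of them among the kept cells of both. Cells were sorted into classes by marker genes that include no CC gene, with the CC genes also withheld from the clustering. Classes are written with "-like" because they rest on transcripts alone. Levels are in CPM, which is the sum of a gene's UMIs in all cells of 1 class divided by all UMIs of these cells and multiplied by 1000000. All intervals are exact 95% intervals that cover counting error only. Fewer cells of a type and less RNA per cell cannot be told apart in a library total, and for that reason the comparisons below are within classes.

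As background, CCL3 and CCL4 attract monocytes and lymphocytes. CCL3, CCL6 and CCL9 are mouse ligands of CCR1, the chemokine receptor carried by neutrophils, monocytes and osteoclast precursors. CCL2 and CCL7 bind CCR2, which draws monocytes out of the bone marrow into inflamed tissue. CCL19 binds CCR7 and guides dendritic cells and lymphocytes to lymphoid tissue. In periodontitis, neutrophils pass from the gingival vessels toward the tooth surface, and monocytes recruited to the bone surface can give rise to osteoclasts.

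Of the 7 ligand genes, 6 lie in pairs on mouse chromosome 11 (GRCm38, which is mm10, GENCODE vM21). *Ccl2* (ENSMUSG00000035385, chr11:82035571-82037453, plus strand) and *Ccl7* (ENSMUSG00000035373, chr11:82045712-82047525, plus strand) have starts 10.1 kb apart. *Ccl9* (ENSMUSG00000019122, chr11:83572919-83578636) and *Ccl6* (ENSMUSG00000018927, chr11:83587882-83593087) lie on the minus strand with starts 14.5 kb apart. *Ccl3* (ENSMUSG00000000982, chr11:83647844-83649355, minus strand) and *Ccl4* (ENSMUSG00000018930, chr11:83662584-83664683, plus strand) point away from each other with starts 13.2 kb apart. The receptor genes *Ccr1* (ENSMUSG00000025804, chr9:123962124-123968692, minus strand) and *Ccr2* (ENSMUSG00000049103, chr9:124101950-124113557, plus strand) have starts 133 kb apart. *Ccl19* (ENSMUSG00000071005, chr4:42754525-42756577, minus strand) has its second row on the scaffold JH584294.1, and that row held 0 UMIs in both libraries. Transcripts of 2 members share at most 25 identical bases in a row, between *Ccl6* and *Ccl9*, followed by 23 bases between *Ccl2* and *Ccl7*. Reads that fit both *Ccl19* rows equally well may not have been counted, so the *Ccl19* level is uncertain to that extent.

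*Ccl6* and *Ccl9* are neighbours whose UMIs were held mostly by neutrophil-like and mostly by macrophage-like cells, respectively, and the regions around their starts are shown for that reason. Each run below holds 250 bases before and 50 bases after the RefSeq start (GRCm38.p6, minus strand, chr11:83593038-83593337 for *Ccl6* and chr11:83578587-83578886 for *Ccl9*), written 5′ to 3′. Capitals mark the bases joined by the best local alignment between both runs, of which 59 of 67 (88.1%) are identical. The aligned stretch begins 59 bases before the start of *Ccl6* and 18 bases before that of *Ccl9*. Of the 9 symbols, 6 had an entry in the RefSeq promoter table, and *Ccl2*, *Ccl4* and *Ccl7* had none. Among the other 14 pairs of the 6 promoters, the longest aligned stretch was 32 bases, between *Ccl9* and *Ccr2*.
Ccl6: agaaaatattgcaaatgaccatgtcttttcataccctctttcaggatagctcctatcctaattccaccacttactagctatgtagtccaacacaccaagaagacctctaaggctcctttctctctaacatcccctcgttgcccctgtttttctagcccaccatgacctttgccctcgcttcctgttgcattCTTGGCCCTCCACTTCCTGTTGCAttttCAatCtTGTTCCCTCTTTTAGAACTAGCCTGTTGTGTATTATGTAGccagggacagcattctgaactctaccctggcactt
Ccl9: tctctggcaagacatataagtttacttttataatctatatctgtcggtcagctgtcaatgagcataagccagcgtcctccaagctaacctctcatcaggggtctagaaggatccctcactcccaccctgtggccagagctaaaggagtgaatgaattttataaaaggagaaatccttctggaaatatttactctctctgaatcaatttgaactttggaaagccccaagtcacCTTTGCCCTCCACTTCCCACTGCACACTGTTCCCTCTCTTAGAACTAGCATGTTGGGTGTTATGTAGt

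The genes differed in which classes held their UMIs. In the LIP library, neutrophil-like cells held 86.5% of the *Ccl3* UMIs (95% interval 85.7–87.4), 72.8% of those of *Ccl4* (71.8–73.8), 75.1% of those of *Ccl6* (73.2–77.0) and 84.1% of those of *Ccr1* (82.3–85.7). Macrophage-like cells held 81.1% of the *Ccl9* UMIs (78.4–83.7) and 89.3% of the *Ccr2* UMIs (86.6–91.6), and both genes were among the 10 leading genes of that cluster, so that this location is a property of the cluster. A further 15.7% of the *Ccl9* UMIs (13.3–18.3) lay in 7 of 53 LIP cells of an unnamed sub-cluster with a median of 793 UMIs. Its *Ccl9* level was 663 CPM (557–783), against 509 CPM in macrophage-like cells, and its 26 control cells had no *Ccl9* UMI. *Ccl7* and *Ccl19* lay in the stroma, with 57.5% (51.9–62.9) and 54.6% (46.9–62.1) of their UMIs in osteogenic-like cells. *Ccl2* was divided between macrophage-like (33.9%), mural-like (23.1%) and osteogenic-like cells (21.3%). In the control library the largest holder was the same class for every gene except *Ccl4*, of which macrophage-like cells held 83.8% (80.9–86.4), and *Ccl7*, of which mural-like cells held 44.3% (33.7–55.3). Of those 39 mural-like *Ccl7* UMIs, 30 were in 1 cell, so the largest holder of *Ccl7* rested on 1 cell in each library.

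**Figure D1:**
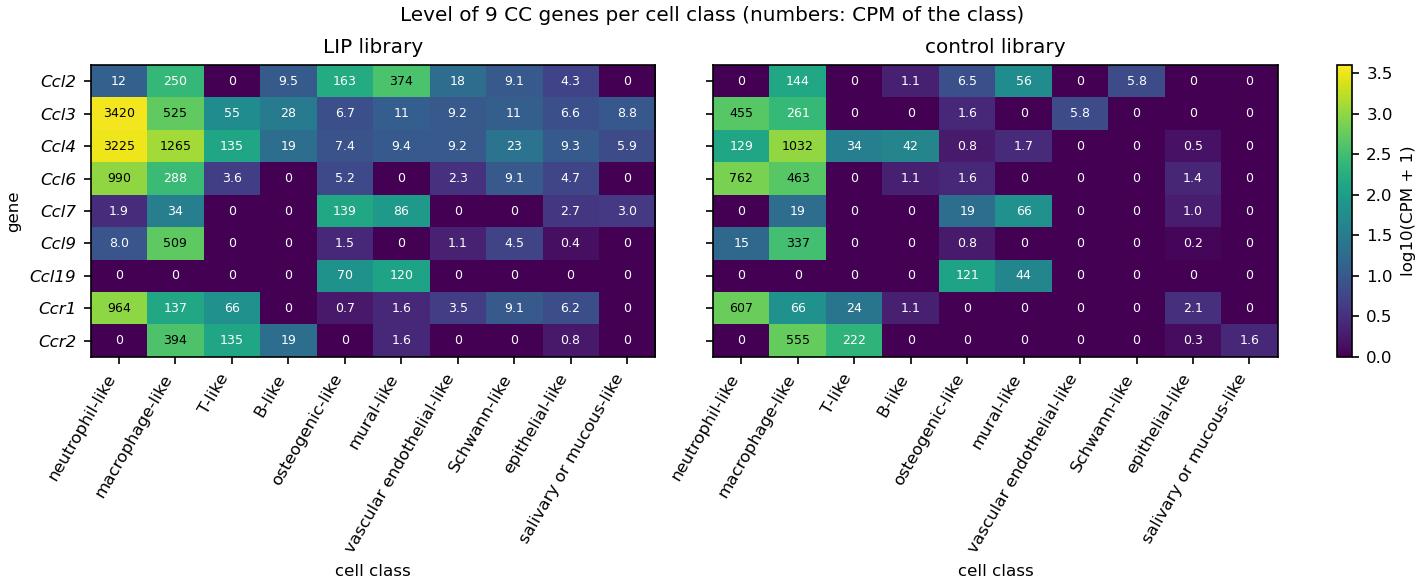
Level of the 9 genes in 10 cell classes, for the LIP library on the left and the control library on the right; colour is log10(CPM + 1) and the number in each cell is the CPM. *Ccl3* and *Ccl4* stood at 3420 and 3225 CPM in LIP neutrophil-like cells, against 455 and 129 CPM in the control library, while *Ccl19* appeared in the osteogenic-like and mural-like columns alone.

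Neutrophil-like cells numbered 323 after ligation and 52 in the control library, 34.5% and 5.89% of the cells kept. *Ccl4*, which encodes MIP-1β, was at 3225 CPM (95% interval 3138–3313, 5227 UMIs) in LIP cells and at 129 CPM (98.2–166, 60 UMIs) in control cells. The difference was 4.65 on the log2 scale (4.28–5.04), a 25.1-fold higher level after ligation. *Ccl3*, which encodes MIP-1α, was at 3420 CPM (3330–3511, 5543 UMIs) and 455 CPM (396–520, 212 UMIs), a log2 difference of 2.91 (2.71–3.12). The differences of *Ccl6*, *Ccl9* and *Ccr1* were under 2-fold in this class, and *Ccl2*, with 19 LIP UMIs and none in the control cells, was at least 1.82-fold higher. Thus 2 of 6 measured members were found at least 2-fold higher, where 13.3% of all genes with at least 10 UMIs in the class were. *Ccl3* and *Ccl4* took part in the choice of the genes, and nothing is read from this count.

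The class was made of 2 sub-clusters in unequal parts. Sub-cluster 1.0, led by *Acod1*, *Hcar2*, *Csf3r* and *Nlrp3* beside *Ccl3* itself, held 275 LIP cells (85.1% of the class) and 29 control cells (55.8%). Sub-cluster 1.1, led by the granule genes *Ltf*, *Ngp* and *Camp* of maturing neutrophils, held 48 LIP cells (14.9%) and 23 control cells (44.2%). Within sub-cluster 1.0 the log2 difference of *Ccl4* was 3.65 (3.26–4.08) and that of *Ccl3* was 1.74 (1.54–1.95). Within sub-cluster 1.1 it was 1.20 (0.06–2.52) for *Ccl4* and 1.57 (0.01–3.57) for *Ccl3*, on 8 and 4 control UMIs. These control UMIs all came from 1 of 23 cells, and 20 of the 34 LIP *Ccl4* UMIs were in 1 cell. Both ligands were higher in the LIP library inside each sub-cluster, by less than in the class as a whole. In sub-cluster 1.1 the size of both differences depends on that 1 control cell, and the higher *Ccl4* level rests largely on that 1 LIP cell. The differences there without these cells were not computed. *S100a8* and *S100a9*, the granulocyte calprotectin genes, made up 218691 CPM of the LIP class and 315288 CPM of the control class. Scaling by TMM factors moved all log2 ratios of this class by 0.19, to 4.84 for *Ccl4* and 3.10 for *Ccl3*. Under that scaling 16.6% of genes were at least 2-fold higher and 6.08% at least 2-fold lower, against 13.3% and 8.96% with the class totals.

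Transcripts of both ligands were unevenly spread over the cells. In the LIP library, 1 neutrophil-like cell held 1137 of the 5227 *Ccl4* UMIs (21.8%) among its 6136 UMIs in all, and the same cell had the highest *Ccl3* count, 397 UMIs. That cell had 7 of 14 neutrophil markers with 71 UMIs and 2 of 14 macrophage markers with 44 UMIs. It had no *Ccl6* or *Ccr1* UMI, so its place in this class is uncertain. The 33 highest cells for each gene held 78.2% of the *Ccl4* UMIs and 63.1% of the *Ccl3* UMIs, compared with 42.6% for *Ccl6* and 27.5% for *Ccr1*. Without the highest cell of each library the log2 difference was 4.87 (4.43–5.36) for *Ccl4* and 3.17 (2.94–3.40) for *Ccl3*. In the control library all 60 *Ccl4* UMIs came from 6 of 52 cells.

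At least 1 *Ccl4* UMI was found in 151 of 323 LIP neutrophil-like cells (46.7%) and in 6 of 52 control cells (11.5%). With every cell thinned to 1000 UMIs, at the loss of 11 shallower LIP cells and no control cell, the share was 36.5% (31.2–42.1) of LIP and 7.69% (2.14–18.5) of control cells. For *Ccl3* the thinned shares were 51.0% (45.3–56.6) and 19.2% (9.63–32.5). Epithelial-like cells, which should lack these transcripts, had thinned shares of 0 of 102 cells for *Ccl4* (an upper limit of 3.55%) and 0.980% for *Ccl3* in the LIP library. Without thinning, 15 of 112 LIP epithelial-like cells (13.4%) had a *Ccl4* UMI, and 15 of 112 (13.4%) had a *Ccl3* UMI. Thinning removes a larger part of the UMIs of these deeper cells. The median depth before thinning was 3860 (LIP) and 6529 (control) UMIs in neutrophil-like cells and 23928.5 and 27693 UMIs in epithelial-like cells. Both ligands were often found together: 126 LIP neutrophil-like cells had UMIs of both, 85 of *Ccl3* only and 25 of *Ccl4* only, at a median of 3824 UMIs in the cells with both and 3833 in the 87 cells with neither. *Ccl4* was thus accompanied by *Ccl3* in 83.4% of the cells that had it, whereas *Ccl3* was accompanied by *Ccl4* in 59.7%.

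**Figure D2:**
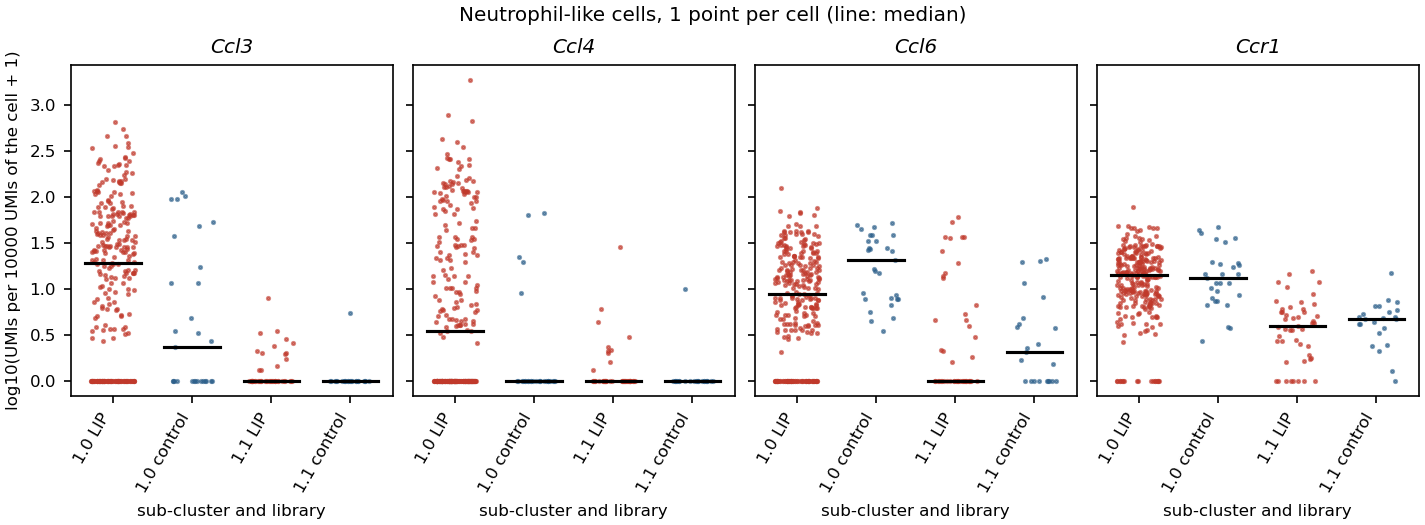
UMIs of *Ccl3*, *Ccl4*, *Ccl6* and *Ccr1* per 10000 UMIs of the cell, on the scale log10(value + 1), with 1 point for each neutrophil-like cell, by sub-cluster and library; black lines are medians. In sub-cluster 1.0 the median of *Ccl3* was 18.3 in LIP and 1.35 in control cells, that of *Ccl6* was 7.80 and 19.5, and those of *Ccr1* were 13.0 and 12.2.

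*Ccl6* and *Ccr1* behaved otherwise in these cells. *Ccl6*, a ligand made constitutively by mouse myeloid cells, was at 990 CPM (942–1039) in the LIP class and at 762 CPM (684–845) in the control class, a log2 difference of 0.38 (0.21–0.55). Within sub-cluster 1.0 its sign turned, to -0.59 (-0.78 to -0.40), and all 29 control cells but 212 of 275 LIP cells had a *Ccl6* UMI. Within sub-cluster 1.1 the difference was 0.33 with an interval that spans 0 (-0.03 to 0.70). When every cell was given the same weight, the difference over the whole class was -0.16. *Ccl6* was at 1410 and 2124 CPM in sub-cluster 1.0 and at 334 and 266 CPM in sub-cluster 1.1, so that the class values also carry the different shares of both sub-clusters in the libraries. *Ccl9*, the neighbour of *Ccl6*, was at 8.02 CPM (13 UMIs) in LIP and 15 CPM (7 UMIs) in control neutrophil-like cells, with a log2 difference of -0.91 whose interval spans 0 (-2.34 to 0.66). All of these *Ccl9* UMIs lay in sub-cluster 1.0, in 5 LIP and 3 control cells, and the difference there was -2.10 (-3.53 to -0.53). Although the start regions printed above share an aligned stretch, neutrophil-like cells held 75.1% of the LIP and 55.2% of the control *Ccl6* UMIs but 1.48% and 3.35% of the *Ccl9* UMIs. Macrophage-like cells had both, and 39 of 75 LIP cells held UMIs of each gene.

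*Ccr1*, the receptor of CCL3, CCL6 and CCL9, was found in 298 of 323 LIP (92.3%) and 51 of 52 control neutrophil-like cells (98.1%). Its level was 964 CPM (916–1013) and 607 CPM (538–682), a log2 difference of 0.67 (0.48–0.85). Inside sub-cluster 1.0 the levels were 1411 CPM (1338–1487) and 1368 CPM (1170–1590), and the difference was 0.05 (-0.19 to 0.28). Inside sub-cluster 1.1 they were 267 CPM and 331 CPM, and the difference was -0.31 (-0.66 to 0.05). Inside both sub-clusters the interval of the *Ccr1* difference therefore spanned 0, unlike that of the whole class. Of the LIP cells with *Ccl3* UMIs, 91.5% also had *Ccr1* UMIs. No *Ccr2* UMI was found in 323 LIP or 52 control neutrophil-like cells, which allows a level of up to 1.85 and 6.44 CPM. *Ccl19* was likewise at 0 in this class. *Ccl2* had 19 UMIs in 5 LIP cells, 15 of them in 1 cell, and none in the control cells.

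**Figure D3:**
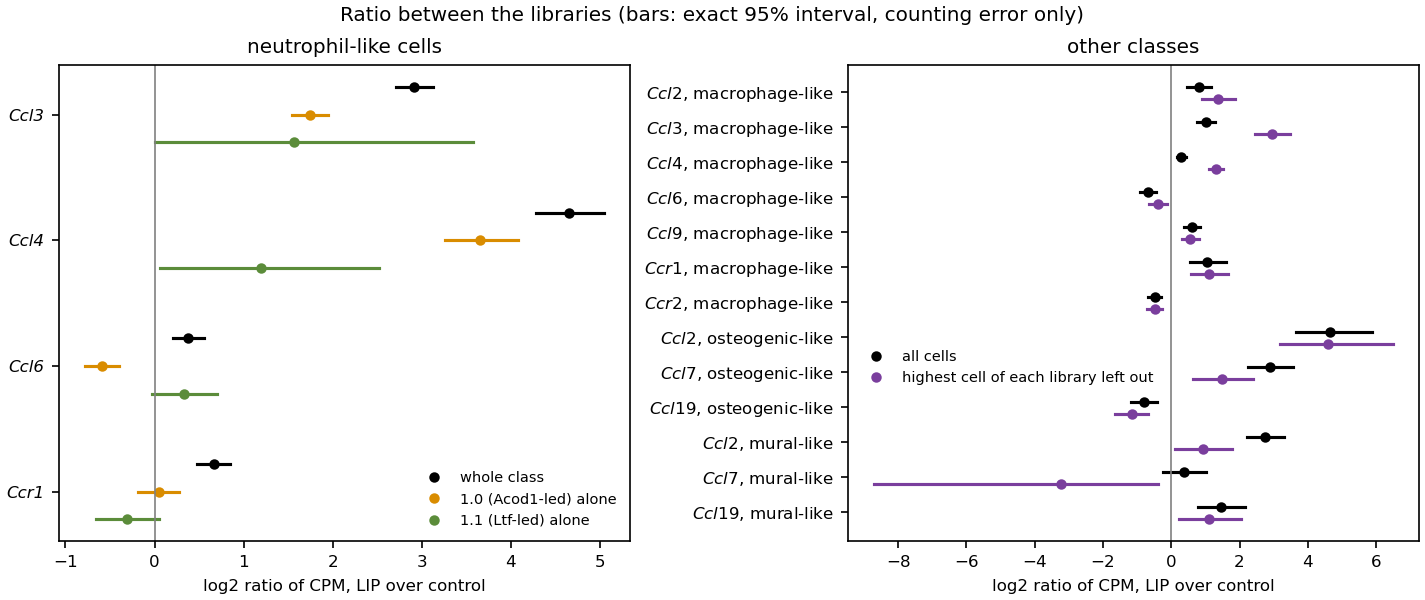
Log2 ratio of CPM, LIP over control, with exact 95% intervals that cover counting error only. Left, neutrophil-like cells as a whole class and inside sub-clusters 1.0 and 1.1, where *Ccl4* stays above 0 at 3.65 and 1.20 and *Ccl6* turns from 0.38 to -0.59 in sub-cluster 1.0. Right, other classes with all cells and without the highest cell of each library, where *Ccl3* in macrophage-like cells moves from 1.01 to 2.94.

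Macrophage-like cells numbered 75 in the LIP and 41 in the control library. This 1 cluster, led by *C1qb*, *Ctss*, *Ms4a6c* and *F13a1*, also contained cells with dendritic markers. *Cd209a* was found in 14.7% of its LIP cells and 36.6% of its control cells, *Flt3* in 18.7% and 39.0%, and *Mrc1*, a resident macrophage marker, was at 52.1 and 298 CPM. Other markers had the opposite order. The dendritic markers *Clec10a* and *Clec9a* were at 79.2 and 11.4 CPM in LIP and at 55.8 and 5.07 CPM in control cells. The macrophage markers *Cd68* and *Lyz2* were at 418 and 13405 CPM in LIP and at 156 and 10097 CPM in control cells. *Adgre1*, *C1qa*, *C1qb* and *C1qc*, also macrophage markers, were at 142, 494, 707 and 323 CPM in LIP cells. In control cells they were higher, at 195, 688, 797 and 494 CPM, and *Csf1r* was at 391 CPM in LIP and 376 CPM in control cells. No sum over the macrophage markers was computed. Of 10 dendritic markers, 10 were detected in the LIP class with a summed level of 590 CPM and 9 in the control class with 983 CPM, with *Xcr1* at 0 in the latter. The part of this mixture in the values below was not tested. Here *Ccl3* was at 525 CPM (488–565) in the LIP and 261 CPM (221–305) in the control library, a log2 difference of 1.01 (0.76–1.27), and *Ccl4* was at 1265 CPM (1207–1325) and 1032 CPM (952–1117), a difference of 0.29 (0.16–0.43). A single control cell, with 13 of 14 macrophage markers, held 120 of the 154 *Ccl3* UMIs and 383 of the 610 *Ccl4* UMIs of the control class. Without the highest cell of each library the differences were 2.94 (2.44–3.49) and 1.30 (1.10–1.51). By cells, *Ccl3* was found in 47 of 75 LIP and 7 of 41 control cells, and *Ccl4* in 47 of 75 and 12 of 41. At a fixed depth of 1000 UMIs the shares were 26.7% (17.1–38.1) and 7.69% (1.62–20.9) for *Ccl3*, and 26.7% (17.1–38.1) and 12.8% (4.30–27.4) for *Ccl4*.

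*Ccl9* was at 509 CPM (473–548) in LIP and 337 CPM (291–387) in control macrophage-like cells, and *Ccr2* at 394 CPM (362–428) and 555 CPM (496–618). Their log2 differences were 0.60 (0.37–0.83) and -0.49 (-0.69 to -0.29), so that these genes of the same cells differed in opposite directions. Many cells had both, 33 of 75 LIP and 20 of 41 control cells. *Ccl6* was lower after ligation in this class, at 288 CPM (261–318) against 463 CPM (410–522), a difference of -0.69 (-0.91 to -0.46), or -0.38 (-0.64 to -0.12) without the highest cells. *Ccr1* was higher, at 137 CPM (118–158) against 66.0 CPM (46.9–90.2), a difference of 1.05 (0.55–1.59), and was found in 52 of 75 and 17 of 41 cells. In all, 2 of 8 measured members, *Ccl3* and *Ccr1*, were at least 2-fold higher in this class, compared with 11.1% of all genes, and none was 2-fold lower, compared with 8.72%. Without the highest cells 5 of 8 were at least 2-fold higher, with *Ccl2*, *Ccl4* and *Ccl7* added, the last on 24 LIP and 5 control UMIs with an interval that spans 0 (-0.41 to 2.75). The share of all genes was not computed without the highest cells. The genes were chosen by their levels in these libraries, and nothing is read from either count.

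*Ccl2*, which encodes the monocyte attractant MCP-1, was at 250 CPM (225–278) in LIP and 144 CPM (115–178) in control macrophage-like cells, a log2 difference of 0.80 (0.46–1.16), or 1.37 (0.91–1.86) without the highest cells. It was found in 27 of 75 and 11 of 41 cells. *Ccl7*, which encodes MCP-3, was at 33.5 CPM (47 UMIs) and 18.6 CPM (11 UMIs), a difference of 0.85 whose interval spans 0 (-0.12 to 1.95). With at most 5% mitochondrial UMIs allowed, the control class kept 11 macrophage-like cells and 33 control cells were named dendritic-like, and the *Ccl2* difference turned to -0.81 (-1.21 to -0.39) and that of *Ccl9* to -0.08 (-0.37 to 0.22). In the same setting *Ccl3* and *Ccl4* remained higher in the LIP library, by 2.11 (1.58–2.70) and 3.98 (3.34–4.72). The directions of *Ccl2* and *Ccl9* in this class thus depended on which cells were counted into it.

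The macrophage-like cells were further divided by the complement genes *C1qa*, *C1qb* and *C1qc*, which resident macrophages express. This split was chosen after the data were seen. In the LIP library, 18 cells had a UMI of these genes and 57 had none, at medians of 24667 and 15292 UMIs per cell. *Ccl7* was at 98.2 CPM in the former and 7.04 CPM in the latter, and *Ccl2* at 418 and 182 CPM. The 40 *Ccl7* UMIs of the former came from 3 cells, 23 of them from 1, and 74 of their 170 *Ccl2* UMIs were in 1 cell. *Ccl4* had the opposite order, at 612 and 1533 CPM. In the control library, 14 cells had a C1q UMI and 27 had none, with *Ccl7* at 52.6 and 0 CPM and *Ccl4* at 2410 and 277 CPM, the former including the cell with 383 UMIs. Among the cells without a C1q UMI, *Ccl3* was at 567 CPM after ligation and 15.7 CPM (6 UMIs) in the control library. Among those with a C1q UMI the order was opposite, at 422 and 708 CPM, and 120 of the 148 control UMIs were in 1 cell.

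In osteogenic-like cells, the class with collagen and bone matrix genes (55 LIP and 109 control cells), *Ccl2* was at 163 CPM (142–185, 220 UMIs) in LIP cells and 6.51 CPM (8 UMIs) in control cells. The log2 difference was 4.64 (3.64–5.87), larger than that of the other measured members in this class. One LIP cell held 115 of the 220 UMIs, and 10 of 55 cells had any. Without the highest cells the difference was 4.58 (3.18–6.49), so it did not rest on that cell alone. *Ccl7* was at 139 CPM (120–160, 188 UMIs) and 18.7 CPM (23 UMIs), a difference of 2.89 (2.26–3.58). Of its LIP UMIs, 139 were in 1 cell and 26 were in the cell with the most *Ccl2*. Without the highest cells the *Ccl7* difference was 1.49 (0.65–2.40). Altogether 4 of 5 measured members, *Ccl2*, *Ccl3*, *Ccl4* and *Ccl7*, were at least 2-fold higher in the LIP osteogenic-like cells, where 6.74% of all genes were. The genes were chosen by their levels in these libraries, and nothing is read from this count. *Ccl3* and *Ccl4* were at 6.65 and 7.39 CPM there, close to their 6.60 and 9.32 CPM in LIP epithelial-like cells. They had 9 and 10 LIP UMIs against 2 and 1 control UMIs, and the *Ccl3* interval spans 0 (-0.24 to 5.28).

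This class too was divided differently between the libraries. Sub-cluster 3.1, led by *Ibsp*, *Bglap* and *Bglap2*, held 31 LIP and 20 control cells, and sub-cluster 3.0, led by the fibroblast genes *Mfap4*, *Clec3b* and *Dpt*, held 24 LIP and 89 control cells. *Ccl2* was higher in the LIP library in both, by 4.93 (3.06–7.99) in sub-cluster 3.1, where 115 of the 201 LIP UMIs were in 1 cell, and by 2.62 (1.24–4.24) in sub-cluster 3.0. In sub-cluster 3.0, 14 of the 19 LIP *Ccl2* UMIs were in 1 cell, against 6 control UMIs, so the difference there rests largely on that cell. The *Ccl7* difference was 5.71 (3.22–11.03) in sub-cluster 3.1, with 139 of 173 LIP UMIs in 1 cell and 1 control UMI. In sub-cluster 3.0 it was 0.41 with an interval that spans 0 (-0.64 to 1.42). Differences inside these sub-clusters without the highest cells were not computed.

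*Ccl19* UMIs lay in osteogenic-like and mural-like cells, apart from 2 UMIs in each library in cells of unnamed clusters, and none was found in the neutrophil-like, macrophage-like, T-like and B-like cells of either library. In osteogenic-like cells it was at 70.2 CPM (56.8–85.8) after ligation and 121 CPM (103–142) without, a log2 difference of -0.79 (-1.18 to -0.41), or -1.15 (-1.64 to -0.67) without the highest cells. Inside sub-cluster 3.0 the difference was -1.20 (-1.79 to -0.64), and 34 of 89 control cells against 6 of 24 LIP cells had a UMI. Inside sub-cluster 3.1 it was 3.23 (1.32–6.31), on 62 LIP and 2 control UMIs, and 39 of those 62 came from the cell that also held 139 *Ccl7* UMIs. In mural-like cells *Ccl19* was at 120 CPM (95–150) and 44.0 CPM (28.7–64.5), a difference of 1.45 (0.79–2.15), or 1.10 (0.22–2.04) without the highest cells.

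Mural-like cells, the pericytes and smooth muscle cells around vessels by their markers, numbered 45 in the LIP and 46 in the control library. *Ccl2* was at 374 CPM (328–424, 239 UMIs) and 55.8 CPM (38.4–78.4, 33 UMIs), a log2 difference of 2.74 (2.21–3.31). One LIP cell with all 12 of 12 mural markers held 199 of these 239 *Ccl2* UMIs and 54 of the 55 *Ccl7* UMIs, and it also had 7 of 15 osteogenic markers. Without the highest cells the *Ccl2* difference was 0.93 (0.12–1.78), and *Ccl7* changed from 0.38 (-0.24 to 1.01) to -3.24 (-8.70 to -0.39), on 1 LIP and 9 control UMIs. Inside sub-cluster 7.1, led by the pericyte genes *Rgs5* and *Vtn*, the *Ccl2* difference was 2.02 (1.49–2.60), that of *Ccl19* was 0.61 (-0.07 to 1.32) and that of *Ccl7* was -0.26 (-0.88 to 0.37). That 1 LIP cell lay in this sub-cluster and held 199 of its 227 LIP *Ccl2* UMIs, against 33 control UMIs. The *Ccl2* difference inside the sub-cluster thus rests largely on 1 cell, and its value without that cell was not computed. By cells, *Ccl2* was found in 13 of 45 LIP and 6 of 46 control cells. *Ccl2* and *Ccl19* made 2 of 3 measured members at least 2-fold higher, compared with 8.63% of all genes. Without the highest cells *Ccl19* alone of the 3 was, and the share of all genes was not computed there. As the genes were chosen by their levels, nothing is read from these counts. A further LIP cell with 122 *Ccl2* and 25 *Ccl7* UMIs fell in an unnamed cluster led by cell cycle genes and had 49604 UMIs with both osteogenic and mural markers.

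**Figure D4:**
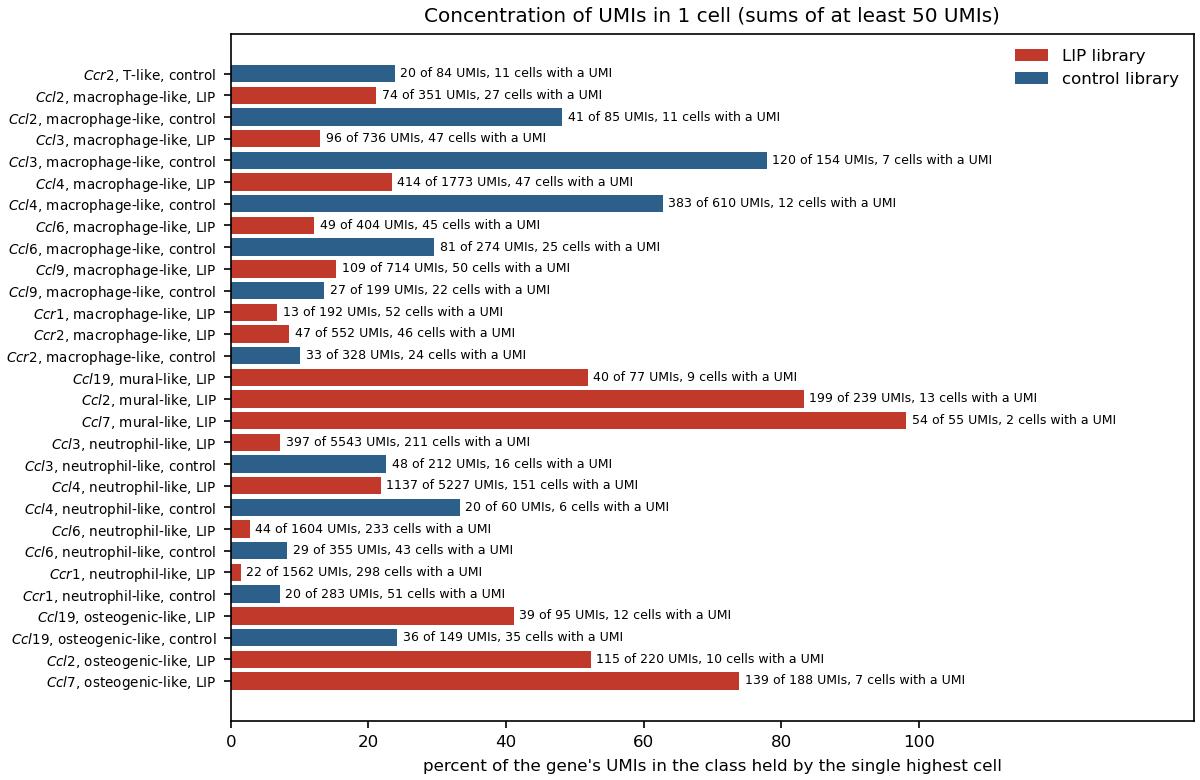
Percent of a gene's UMIs in a class and library that the single highest cell held, for sums of at least 50 UMIs, with the UMIs and the number of cells with a UMI beside each bar; red is the LIP and blue the control library. The bars run from 1.41% for *Ccr1* in LIP neutrophil-like cells to 98.2% for *Ccl7* in LIP mural-like cells.

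*Ccr2* was found in macrophage-like and T-like cells. In T-like cells (27 LIP and 51 control) it was at 135 CPM (94.9–186) and 222 CPM (177–275), a log2 difference of -0.72 (-1.32 to -0.15), or -0.52 with an interval that spans 0 (-1.18 to 0.11) without the highest cells. The direction of the level was opposite to the share of cells, which was 14 of 27 in the LIP and 11 of 51 in the control library, and at 1000 UMIs per cell the shares were 14.8% and 15.7%. *Ccr1* was at 65.6 CPM (18 UMIs) and 23.8 CPM (9 UMIs) in T-like cells, a difference of 1.46 (0.23–2.80), or 1.46 with an interval that spans 0 (-0.07 to 3.16) without the highest cells. It was found in 10 of 27 and 3 of 51 cells. At 1000 UMIs per cell the shares were 14.8% (4.19–33.7) and 3.92% (0.478–13.5), and at 2000 UMIs per cell 3.70% and 4.08%. *Ccl4* was at 135 and 34.4 CPM, with 31 of its 37 LIP UMIs in 1 cell. *Ccl3*, *Ccl4* and *Ccr1* made 3 of 4 measured members at least 2-fold higher in T-like cells, compared with 12.4% of all genes. Because the genes were chosen by their levels, nothing is read from this count. The T-like class was divided unequally between the libraries. Sub-cluster 8.0, with *Cd3g* and *Cd3d* but also the natural killer cell markers *Nkg7* and *Klrd1* among its leading genes, held 11 LIP and 30 control cells. Sub-cluster 8.1, led by *Il17a* and *Trdc*, held 16 LIP and 21 control cells. Differences inside them were not computed, so the part of this division in the T-like values here and below was not tested.

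Epithelial-like cells should lack most of these genes, and their levels are given for comparison. In LIP epithelial-like cells *Ccl3*, *Ccl4*, *Ccl6* and *Ccr1* were at 6.60, 9.32, 4.66 and 6.22 CPM, beside 1891 CPM of *S100a8* and *S100a9*, and in control epithelial-like cells at 0, 0.480, 1.44 and 2.08 CPM, beside 132 CPM. One cell held 14 of the 16 LIP and another 12 of the 13 control *Ccr1* UMIs, and 5 of the 7 LIP *Ccl7* UMIs were in 1 cell. All 6 members measured there were at least 2-fold higher in the LIP library, where 5.37% of all genes were, and the part of free RNA in these values was not tested. Nothing is read from this count, as the genes were chosen by their levels. The 73 LIP barcodes with fewer than 200 genes, in which haemoglobin transcripts made up 73.5% of the UMIs, held *Ccl3* and *Ccl4* at 3.42 CPM each and *Ccl6* at 6.85 CPM. For comparison, *Ccl3* and *Ccl4* were at 3420 and 3225 CPM in LIP neutrophil-like cells and at 525 and 1265 CPM in LIP macrophage-like cells. *Ccl2* and *Ccl9* were at 11.7 and 8.02 CPM in LIP neutrophil-like cells.

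Of the 29 other CC family genes examined, 19 had at least 50 UMIs over both libraries, 10 did not, and 3 of those had no UMI. For several of the other ligands 1 cell held most of the UMIs of a class. *Ccl5*, which encodes RANTES, was at 1481 CPM in LIP and 16.9 CPM in control macrophage-like cells, a log2 difference of 6.45 (5.57–7.51), and 1 LIP cell held 1403 of the 2075 UMIs. That cell had 414 *Ccl4* UMIs, 5 of 14 macrophage markers and 7 of 14 neutrophil markers. Without the highest cells the *Ccl5* difference was 8.12 (5.64–13.43), on 672 LIP UMIs and 1 control UMI. In T-like cells *Ccl5* was at 2207 and 399 CPM, a difference of 2.47 (2.21–2.73), with 8 cells positive in each library. *Ccl24* had 226 of its 229 LIP UMIs in 1 macrophage-like cell, and *Ccl1* had 157 of 159 LIP UMIs and 123 of 127 control UMIs in 1 T-like cell each.

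Other ligands were lower in the LIP library. *Ccl11*, the eosinophil attractant eotaxin, was at 182 CPM in LIP and 616 CPM in control osteogenic-like cells (log2 difference -1.76, -1.97 to -1.55) and at 133 and 450 CPM in mural-like cells (-1.76, -2.13 to -1.40). Of its UMIs in osteogenic-like cells, 245 of 246 LIP and all 757 control UMIs lay in sub-cluster 3.0, which held 43.6% of the LIP and 81.7% of the control cells of the class, and the difference inside it was -0.67 (-0.88 to -0.46). In mural-like cells all of its UMIs lay in sub-cluster 7.1, where the difference was -2.40 (-2.77 to -2.05). There 131 of the 266 control UMIs were in 1 cell, and the class difference without the highest cells was -1.18 (-1.63 to -0.74). *Ccl22*, a ligand of CCR4 made by dendritic cells, was at 7.14 CPM in LIP and 159 CPM in control macrophage-like cells (-4.48, -5.58 to -3.54). *Ccl8* was found in 0 of 75 LIP cells there, which allows a level of up to 2.14 CPM, and was at 223 CPM in the control class, of which 119 of 132 UMIs were in 1 cell. *Ccl12* was at 19.3 and 57.5 CPM (-1.58, -2.36 to -0.81). Altogether 5 of 9 other family genes were at least 2-fold lower in macrophage-like cells, compared with 8.72% of all genes. Of the same 9, *Ccl5* and *Ccl24* were at least 2-fold higher, compared with 11.1% of all genes. In osteogenic-like cells 5 of 7 were at least 2-fold lower, compared with 11%, namely *Ccl11*, *Ccl25*, *Ccl27a*, *Ackr1* and *Ackr2*, and none was 2-fold higher, compared with 6.74%. The gene lists were chosen with earlier results of these data known, and nothing is read from these counts. Inside sub-cluster 3.0, *Ackr2* alone of the 5 genes of osteogenic-like cells was at least 2-fold lower, at -3.09 (-6.19 to -1.12), and the intervals of *Ccl25*, *Ccl27a* and *Ackr1* spanned 0. Inside sub-cluster 3.1, *Ccl27a* was lower, at -2.24 (-3.87 to -0.69), on 7 LIP and 10 control UMIs, and the *Ackr1* interval spanned 0 (-2.02 to 1.84). The others had fewer than 10 UMIs there and no ratio.

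The UMIs of 3 ligands lay mostly or wholly in 1 class. *Ccl21a*, a ligand of CCR7 and the leading gene of its cluster, was at 13714 CPM in the 5 LIP and 18615 CPM in the 19 control lymphatic endothelial-like cells, which held 78.8% and 98.4% of its UMIs. *Ccl20*, a ligand of CCR6, was found in epithelial-like cells alone, at 13.2 CPM (34 UMIs in 6 cells) and 3.20 CPM (20 UMIs in 6 cells). *Ccl28*, a mucosal chemokine, was at 103 and 50.6 CPM in salivary or mucous-like cells, with 92.1% and 78.0% of its UMIs. *Ccl25* and *Ccl27a* were spread more widely. *Ccl25* was at 47.6 CPM in LIP B-like, 21.9 CPM in LIP T-like and 8.16 CPM in LIP epithelial-like cells. *Ccl27a*, a skin chemokine, was at 16.7 CPM in LIP epithelial-like and 31.8 CPM in LIP Schwann-like cells.

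Among the other receptors, *Ccr7*, the receptor of CCL19 and CCL21, was lower in the LIP library in B-like cells (-1.04, -1.67 to -0.47), T-like cells (-1.80, -2.50 to -1.15) and macrophage-like cells (-2.16, -2.68 to -1.65), where 74 of the 96 control UMIs were in 1 cell. *Ccr6* was found mostly in control B-like cells, at 82.4 CPM, and at 0 in the 21 LIP B-like cells, which allows up to 28.5 CPM. The B-like class was divided unequally between the libraries. Its sub-cluster 4.0, led by *Igkc*, *Cd79a* and *Ighd*, held 12 LIP and 145 control cells. Sub-cluster 4.1, with *Vpreb3* and *Rag1* among its leading genes, held 9 LIP and 9 control cells. Differences inside these sub-clusters were not computed, so the part of this division in the *Ccr7* and *Ccr6* values was not tested. *Ccrl2*, an atypical receptor that binds chemerin and a leading gene of sub-cluster 1.0, was higher in LIP neutrophil-like cells, at 1547 CPM against 178 CPM (3.12, 2.80 to 3.45), and the difference was 2.05 (1.72–2.40) inside sub-cluster 1.0. *Ackr1*, the Duffy antigen, which carries chemokines across venules, was at 335 and 151 CPM in vascular endothelial-like cells (1.15, 0.72 to 1.61). *Ackr2* was at 5.17 and 29.3 CPM and *Ackr4* at 63.5 and 52.9 CPM in osteogenic-like cells.

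The genes with the most similar pattern to each member were ranked by Pearson correlation of log2(CPM + 10) over 20 sums, the 10 classes with at least 10 cells in each of both libraries, among 11789 genes. The points share libraries and classes, and the coefficients are a description. *Ccl4* was followed most closely by *Tnf* (r = 0.952), *Lrrc25* and *Slc15a3*, and *Ccl3* by *Il1b* (r = 0.971), *Nlrp3* and *Lilr4b*. *Ccr1* was closest to *Pilrb1* (r = 0.980), *Osm* and *Slc16a3*, and *Ccl6* to *Igsf6* (r = 0.986), *Clec4a2* and *Nfam1*. *Ccl9* was closest to *Clec4a3* (r = 0.980), *Clec4a1* and *Clec10a*, and *Ccr2* to *Klrb1b* (r = 0.971), *Ms4a6b* and *Cx3cr1*. *Ccl2* was closest to *Il6* (r = 0.879), *Cxcl9* and its neighbour *Ccl7*. *Ccl7* was closest to *Fabp3* (r = 0.944), *Gprc5c* and *Itga10*, and *Ccl19* to *Twist1* (r = 0.989), *C1qtnf7* and *Adamts15*.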

How the data were processed

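The authors counted reads with Cell Ranger (3.1.0 in the matrix header, mm10) and deposited the unnormalized UMI counts as 1 matrix of genes by barcodes for each of 2 libraries; no cell annotation was used. The members and gene lists were chosen with earlier results of these data known. Barcodes with 200 to 7500 genes, at most 60000 UMIs and at most 10% mitochondrial UMIs were kept. Libraries were integrated by canonical correlation in Seurat 5.3.0 (R 4.3.3) on 1976 of 2000 variable genes, leaving out 24 CC genes, with 30 dimensions, and clustered at resolution 0.1 and sub-clustered at 0.2. A sub-cluster was named from at least 3 markers found in 25% of its cells at over 2-fold. Scrublet (scanpy 1.11.5) marked 1 LIP and 4 control cells, which were kept. UMIs were summed by class and library. Ratios carry exact conditional intervals, shares exact binomial (Clopper-Pearson) intervals, and a count of 0 a floor of 3 UMIs. UMIs of 1 cell are not independent, and the intervals cover counting error only. With 1 library per group no test was made. Ratios were computed for genes with at least 10 UMIs in a class. The named genes were all members, the other CC family genes with at least 50 UMIs, the 3 genes most similar to each member and the leading genes of sub-clusters. The alternatives were other clustering settings, a mitochondrial limit of 5%, doublets removed, the highest cell left out, equal weight per cell, TMM factors (edgeR 4.0.16), other minimum counts, thinning to 2000 UMIs or none, and single sub-clusters. On simulated neutrophil-like counts, 96.5% of the intervals of 200 genes changed 4-fold held the true value, and 98.5% of these genes passed 2-fold. These counts were drawn independently (Poisson), as the intervals assume. The simulation therefore checks the computation only and does not cover the uneven spread of UMIs over cells. One gene of the family list is not reported here.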

Additional observations from a re-analysis of the deposited data

Results flagged for a closer look

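*Ccl6* differed in opposite directions in myeloid classes, with a log2 ratio of LIP over control of 0.38 in neutrophil-like cells against -0.69 in macrophage-like cells. *Ccl19* did so in stromal classes, with 1.45 in mural-like and -0.79 in osteogenic-like cells. Inside neutrophil-like sub-cluster 1.0 the *Ccl6* ratio was -0.59, and inside sub-cluster 1.1 its interval spanned 0 (-0.03 to 0.70). For *Ccl19* the ratio was -1.20 and 3.23 inside osteogenic-like sub-clusters 3.0 and 3.1. In mural-like sub-cluster 7.0 it was at least 2.03 on 10 LIP UMIs, and in 7.1 its interval spanned 0 (-0.07 to 1.32). The opposite directions thus did not hold inside all sub-clusters. Neither difference between classes was tested, since each class has 1 library per group.

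The barcodes left out by the cell filters, 276 in the LIP and 286 in the control library, also held transcripts of these genes, 4 of which were above the control level. The log2 ratio there was 4.66 (95% interval 3.80–5.67) for *Ccl2*, of which 287 of 333 LIP UMIs were in 1 barcode. It was 3.95 (1.99–7.05) for *Ccl3*, on 37 LIP and 2 control UMIs, and 3.55 (0.83–8.95) for *Ccl9*, on 14 and 1 UMIs. For *Ccr2* it was 3.44 (1.79–5.78), with 24 of 39 LIP UMIs in 1 barcode. For the other 5 genes the interval spanned 0, with 0.26 for *Ccl4*, -0.26 for *Ccl6*, 2.06 for *Ccl7*, -1.26 for *Ccl19* and 0.83 for *Ccr1*. These barcodes entered no comparison, and the differences were not tested.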

How the results depend on the processing

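No paired analysis was possible because each group is 1 library, and for the same reason no replicate could be left out. Recomputed with the other settings, single sub-clusters aside, 190 log2 ratios stayed within the counting interval of the reported value, 32 moved outside it and 3 turned their sign. A reported value that was a bound has no interval and was counted as staying if its sign was kept. A turned sign was counted only where the reported interval did not span 0. *Ccl7* in mural-like cells, at -3.24 without the highest cells, was thus counted as moved. In neutrophil-like cells, the *Ccl3* log2 ratio was 3.17 without the highest cells, 1.98 with equal weight per cell, and 1.74 and 1.57 inside sub-clusters 1.0 and 1.1, and that of *Ccl4* was 3.47 with equal weight and 3.65 and 1.20 inside the sub-clusters. The *Ccl4* level of LIP cells was 2533 CPM without the highest cell, and the share of cells with *Ccl4* was 46.7% without thinning. The share of genes at least 2-fold higher was 8.13% with no minimum beyond 1 UMI. By that rule the sign turned for *Ccl6* in neutrophil-like cells with equal weight (-0.16) and in sub-cluster 1.0 (-0.59), for *Ccr1* in sub-cluster 1.1 (-0.31), for *Ccl19* in osteogenic-like sub-cluster 3.1 (3.23), and, with at most 5% mitochondrial UMIs allowed, for *Ccl2* (-0.81) and *Ccl9* (-0.08) in macrophage-like cells. The sub-cluster values were added after the data were seen, and the causes were not tested. At resolution 0.3, with CC genes among the variable genes, and with marked doublets removed, all 26 ratios stayed within the counting interval or, for bounds, kept their sign. TMM factors moved the ratios by 0.19 in neutrophil-like cells and by 0.15 in osteogenic-like cells, and the share of 2-fold calls that were higher from 59.7% to 73.3% and from 38.0% to 50.8%. The largest shift of any class was -0.42, in B-like cells, whose *Ccr7* and *Ccr6* values are given with the class totals only. Classes of few cells, such as the 5 LIP lymphatic endothelial-like, 21 LIP B-like and 27 LIP T-like cells, limit the precision of their values.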
